A study of Rattus norvegicus with 18 samples.

Results

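A set of 101 H3K4me3 peaks stood higher 3.5 h after cAMP washout than in untreated Schwann cells and than 30 min after washout, out of 16364 merged peaks counted across the genome. The peaks were chosen by their own read counts. A peak was kept if it lay on chromosomes 1 to 20, if its mean count over the 9 H3K4me3 libraries was at least 50, if its lowest 3.5 h value lay above the highest of the 6 control and 30 min values, and if its mean at 3.5 h was at least 1.25 times both other means. Values are given as CPM, the reads in a peak per 1000000 reads in peaks of that library. Of the 16364 peaks, 15852 lay on chromosomes 1 to 20 and 15492 of these had enough reads. The differences between 3.5 h and the other conditions are therefore a description of how the peaks were picked, and no test of them is offered.

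The cells were primary Schwann cells, isolated from sciatic nerves of Fisher rats aged 3 months, used between passages 3 and 6, and grown for the experiment without the neuregulin and forskolin of their early expansion. Untreated control cells were compared with cells given membrane-permeable 8-CPT-cAMP for 30 min and collected 30 min or 3.5 h after its removal. The dose is 50 μM in the legend of the study's ChIP sequencing figure and in one field of the sample labels, and 100 μM in another field. Each of the 3 conditions had 3 H3K4me3 libraries and 3 genomic input libraries, 18 in all, and because no source says that they came from separate cultures, p-values measure the spread between these libraries, which may be technical.

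Schwann cells are the glia that ensheathe peripheral axons. Trimethylation of histone H3 at lysine 4 (H3K4me3) marks the promoters of active and poised genes, where it is written by methyltransferases of the SET1 and MLL families. It is removed by the KDM5 demethylases, JmjC-domain enzymes that need Fe(II), and cAMP is the second messenger through which many G protein-coupled receptors act.

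The H3K4me3 libraries held 13762905 to 17160987 reads in peaks and the input libraries 27344 to 835518. Between 75.1% and 88.5% of the aligned H3K4me3 reads fell in peaks, with the 2 highest values in 3.5 h replicates 2 and 3 (87.2% and 88.5%). Peaks are given by their deposited names and by their positions on Rnor_6.0 as deposited. No annotation or sequence of that assembly was used here, so that the peaks are not assigned to genes, their bases are not shown, and the cell type was not checked against its markers.

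The full set is seen best library by library. The 101 peaks together took 0.225%, 0.233% and 0.236% of the peak reads in the control libraries. At 30 min after washout they took 0.235%, 0.231% and 0.248%, and at 3.5 h 0.323%, 0.328% and 0.324%. The 3 libraries of 3.5 h lay apart from the other 6, as the choice of peaks requires. They were also close to each other on this scale, and less so as shares of all aligned reads (0.255%, 0.286% and 0.286%). The means of the shares of peak reads were 0.231% ± 0.00549, 0.238% ± 0.00871 and 0.325% ± 0.00267 (SD, n = 3). The median CPM of a member was 10.8, 12.6 and 13 in the control libraries, 11.9, 10.6 and 12.9 at 30 min, and 16.2, 16.5 and 17.3 at 3.5 h.

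**Figure D1:**
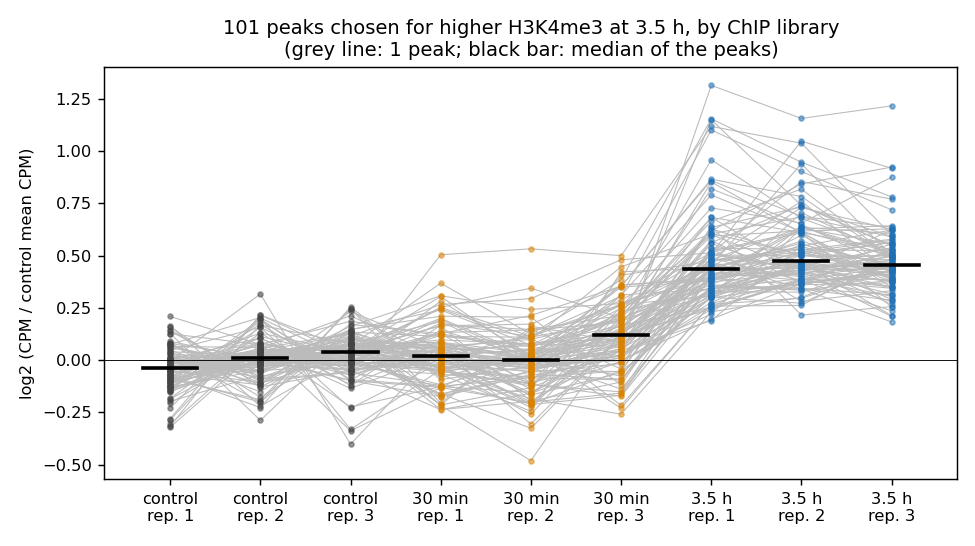
Each grey line follows 1 of the 101 chosen peaks through the 9 H3K4me3 libraries (x axis), as log2 of its CPM over its control mean (y axis), with points coloured by condition and a black bar at the median of the peaks. The control and 30 min values of most peaks lie around 0, though 30 min means ran from 0.884 to 1.43 times control. Every peak is highest in the 3.5 h libraries, as the rule demands, and 1 peak stands above the rest.

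For most of the peaks the difference was small. The ratio of the 3.5 h mean to the higher of the other means had a median of 1.29, and 55 of the 101 peaks lay between 1.25 and 1.3. It was between 1.5 and 2 for 10 peaks and above 2 for 1 peak. The lowest 3.5 h value was 1.01 to 2.14 times the highest of the other 6 (median 1.14), and this gap was more than 1.2 for 34 peaks. The ratio, and not the separation of the libraries, made the set small. Among the 15492 peaks with enough reads, 2405 (15.5%) had all 3.5 h libraries above the other 6, and 2304 of them fell below 1.25.

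The ratios ran without a gap across the threshold. The 3 members nearest to the threshold were Peak_4518 on chromosome 19, Peak_5984 on chromosome 5 and Peak_13848 on chromosome 7, each with a ratio of 1.25 to 3 digits. Just outside were Peak_8047 on chromosome 10 at 1.249, Peak_7333 on chromosome 8 at 1.248 and Peak_9175 on chromosome 14 at 1.248. The number of members also rested on the scaling, since 380 peaks met the same rule when reads were divided by all aligned reads and 217 when a trend with abundance was removed by loess. Without 30 min replicate 3, a library whose labels mention a second sequencing run, 153 peaks met it.

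**Figure D2:**
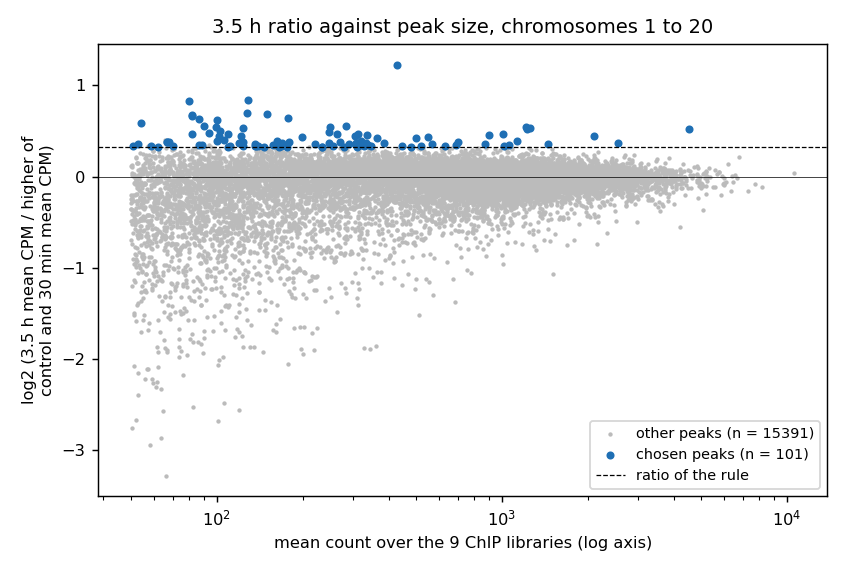
Each point is 1 of the 15492 peaks with enough reads, with its mean count on the x axis (log scale) and log2 of its 3.5 h mean over the higher of the control and 30 min means on the y axis; the 101 chosen peaks are blue and the dashed line marks the ratio of 1.25. Blue points gather at low counts and a single peak stands above a log2 of 1. Many more of the other peaks extend downwards than upwards, but dividing by the higher of 2 means lowers the ratio. Its median over these peaks was 0.991, against 1.011 over control alone and 1.009 over 30 min alone. The asymmetry is therefore not in itself a measure of loss at 3.5 h.

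The peak with the largest difference was Peak_6356 (chromosome 5, 173688590 to 173689829, 1240 bp). Its CPM was 18.5, 20.4 and 20.4 in the control libraries, 20.3, 17.7 and 20.6 at 30 min, and 49.1, 44.0 and 45.9 at 3.5 h. Every 3.5 h library held at least 2.14 times the level of any other library, while the control and 30 min values overlapped, and the means were 19.8 ± 1.1, 19.5 ± 1.57 and 46.3 ± 2.58 (SD, n = 3). These values rest on 254 to 348 reads per library before 3.5 h and on 635 to 761 reads at 3.5 h. The ratio was 2.35. The nearest neighbour, Peak_12955, lay 26595 bp away and had a ratio of 0.970. Of the 19 peaks within 500 kb, itself included, Peak_6354 (ratio 1.38) and Peak_12946 (1.25) were members too, and the other 16 had ratios of 0.669 to 1.17. The difference at Peak_6356 thus stood beside peaks that mostly had similar levels in all conditions. All of those peaks lay at lower coordinates, so that only 1 side of it could be compared.

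The next largest ratios belonged to weak peaks. Peak_3870 (chromosome 15, 95511909 to 95514151) had 6.83, 8.52 and 5.18 CPM in the control libraries, 7.11, 5.54 and 7.45 at 30 min, and 9.74, 14.1 and 12.9 at 3.5 h, a ratio of 1.79. It was isolated, with 1303540 bp to the nearest other peak. Peak_8624 (chromosome 12, 22642157 to 22642956) had 4.94, 4.50 and 3.38 CPM in the control libraries, 3.90, 3.71 and 4.57 at 30 min, and 9.48, 7.14 and 6.25 at 3.5 h, a ratio of 1.78. Only 282 bp from it, Peak_8623 had a ratio of 0.863, so that its 3.5 h mean lay below the higher of its control and 30 min means. In both peaks the 3.5 h libraries spread over a wider range of CPM than the control libraries, and the lowest of them was 1.14 and 1.27 times the highest of the rest. Relative to the mean, the SD was 24.4% in control and 18.5% at 3.5 h for Peak_3870, and 18.8% and 21.9% for Peak_8624.

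A further 7 peaks complete the 10 largest ratios. Peak_6183 on chromosome 5 (140923719 to 140924577) went from 6.83, 7.34 and 6.28 CPM in control cells and 7.11, 6.06 and 8.13 at 30 min to 11.3, 10.7 and 12.5 at 3.5 h. Peak_5228 on chromosome 3 (9546512 to 9548710) had 9.81, 9.76 and 10.2 in control cells, 11.1, 8.66 and 10.3 at 30 min, and 15.4, 16.5 and 15.0 at 3.5 h. Peak_5815 on chromosome 4 (117964360 to 117965144) had 3.63, 3.95 and 4.07, then 5.01, 4.23 and 5.07, then 8.65, 7.48 and 6.67. Its 30 min libraries already lay above all 3 control libraries, which was not so for Peak_6183 and Peak_5228. Their ratios were 1.62, 1.56 and 1.59. Peak_4646 (chromosome 2, 24556821 to 24557677, ratio 1.58), Peak_4508 (chromosome 19, 25856871 to 25857554, 1.55) and Peak_5086 (chromosome 20, 14429655 to 14430939, 1.54) were equally weak, with mean counts of 82.1, 86.9 and 99.8. The last of the 10, Peak_6397, lay in a group of adjacent members described with the neighbouring peaks.

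Some members were strong peaks with a modest difference. Peak_7227 (chromosome 8, 68961735 to 68968665) was both the widest member, at 6931 bp, and the one with the most reads. It had 252, 262 and 270 CPM in control cells, 265, 262 and 269 at 30 min, and 403, 369 and 369 at 3.5 h. Control and 30 min values covered the same range, and all 3 later libraries lay far above it (261 ± 8.67, 265 ± 3.82 and 380 ± 19.9, SD, n = 3), a ratio of 1.43. Peak_5789 (chromosome 4, 100096845 to 100099951) had 119, 126 and 128, then 120, 125 and 132, then 174, 170 and 171 CPM. Peak_3777 (chromosome 15, 33216106 to 33219024) had 154, 160 and 154, then 152, 152 and 157, then 195, 201 and 210. Peak_7855 (chromosome 1, 267089551 to 267093918) had 71.1, 79.4 and 74.4, then 69.1, 64.8 and 72.4, then 109, 108 and 108. In all of these peaks the 3 libraries of one condition differed much less from each other than 3.5 h differed from the rest, and their ratios were 1.37, 1.29 and 1.44.

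The remaining strong members had the same order of libraries. Peak_7922 on chromosome 10 (14012131 to 14014399) had means of 71.4, 71.4 and 103 CPM in control, 30 min and 3.5 h cells (ratio 1.44). Peak_6538 on chromosome 6 (104070658 to 104072694) had 84.9, 89.3 and 115 (ratio 1.29). Peak_5543 on chromosome 3 (156338990 to 156342957), the next widest member after Peak_7227 and Peak_7855 at 3968 bp, had 69.3, 70.7 and 103 (ratio 1.46). At the other end were the narrow peaks Peak_6409 on chromosome 6 (24064522 to 24064913, 392 bp), Peak_8674 on chromosome 12 (38783120 to 38783519, 400 bp) and Peak_4518 on chromosome 19 (26128522 to 26128965, 444 bp), with ratios of 1.27, 1.3 and 1.25. The strong and wide peaks were exceptions in the set.

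**Figure D3:**
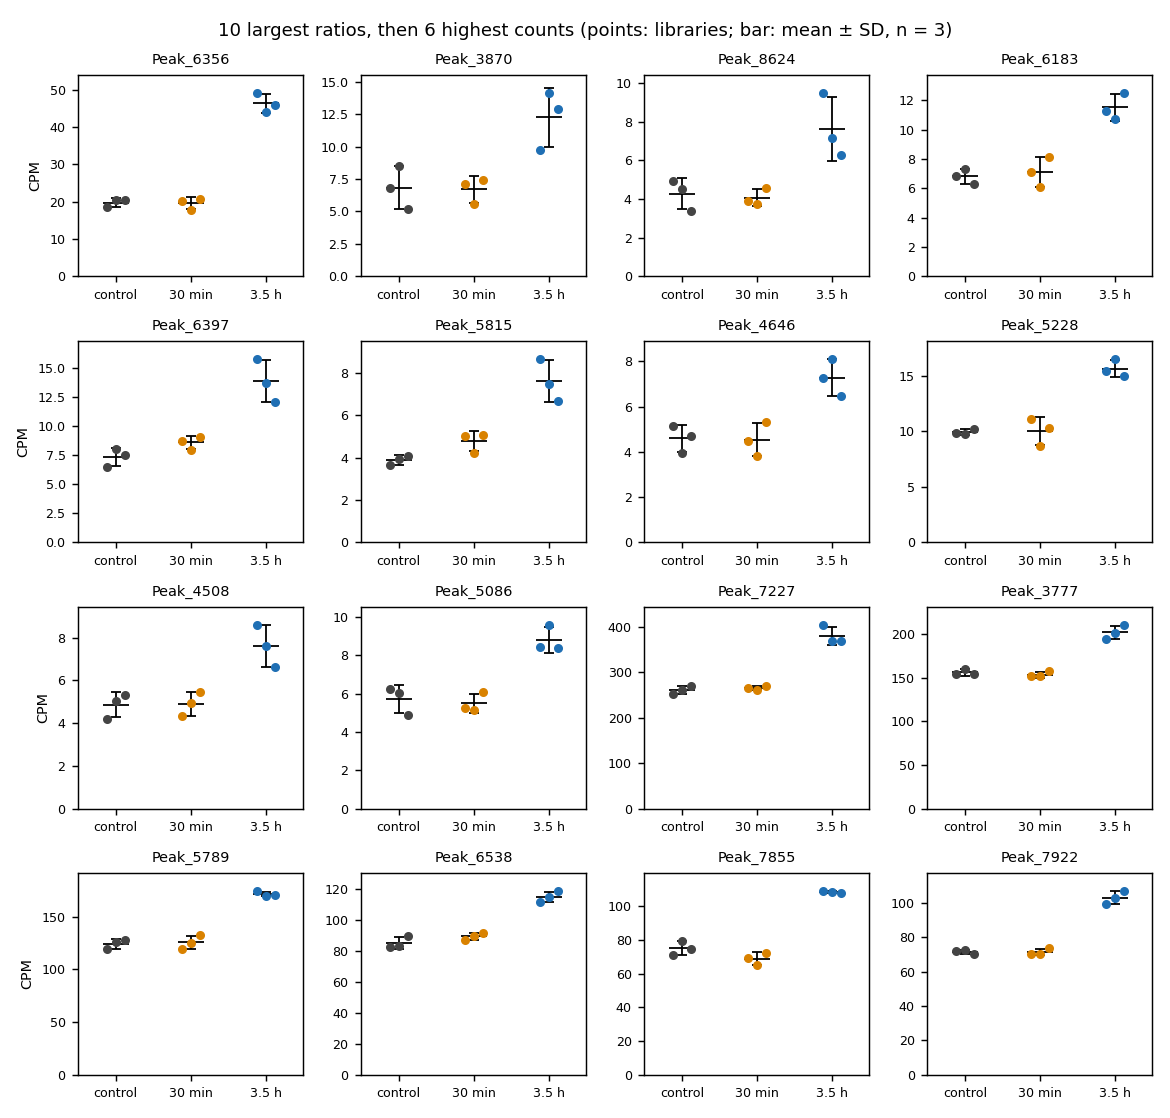
CPM (y axis, from 0, scale differing between panels) in control, 30 min and 3.5 h libraries (x axis, points) for the 10 members with the largest ratios and the 6 with the highest counts, with a bar at the mean ± SD (n = 3). Peak_6356 has the widest separation, the other large ratios come from peaks of under 20 CPM, and the 6 strong peaks separate by 1.29 to 1.44 times with little spread.

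Compared with the peaks with enough reads, most members were weak, narrow peaks. Their mean count had a median of 199 (50.8 to 4538), against 808 over the 15492 peaks with enough reads, and 62 of the 101 lay in the lowest of 4 equal groups of those peaks by mean count and 4 in the highest. In control cells 47 members (46.5%) were below 10 CPM, against 15.3% of the peaks with enough reads, and 12 were at 50 CPM or more (11.9% against 52.6%). Members were thus rarer among strong peaks. Width had a median of 1077 bp (392 to 6931) against 1572 bp, and 42 members (41.6% against 21%) were under 1 kb. Per kb of peak, the median level of members was 9.98 CPM in control cells and 14.5 at 3.5 h, whereas that of the peaks with enough reads was 32.6 at both. Only 6 members in control cells and 12 at 3.5 h lay above the median of the peaks with enough reads, and Peak_6356 went from 15.9 to 37.4 CPM per kb. Peaks picked by the same thresholds for other patterns were weak and narrow too. Those lower at 3.5 h (868) had a median mean count of 169, a width of 1150 bp and a control level of 10.9 CPM per kb, and those higher at 30 min (345) had 96.2, 931 bp and 6.93. The coefficient of variation between replicates had a median of 6.62% in the control, 6.92% in the 30 min and 6.27% in the 3.5 h libraries of members, against 2.37%, 2.92% and 4.13%.

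H3K4me3 at the members was also weakly enriched over input. In control cells the level over that of the pooled inputs had a median of 8.63 (2.94 to 45.7), against 33.2 for the peaks with enough reads. Reads in the input libraries were not used in the choice and were counted in the same peaks. The members took 0.504%, 0.633% and 0.583% of the peak reads in the control inputs, 0.588%, 0.563% and 0.596% at 30 min, and 0.550%, 0.607% and 0.560% at 3.5 h. The 3 ranges overlapped. The share at 3.5 h differed from control by -0.000648 percentage points (two-sided exact permutation test, p = 1) and from 30 min by -0.00934 (p = 0.7), where the smallest p that 3 against 3 libraries allow is 0.1. The inputs were shallow, with 173 to 4977 reads over all members per library, and 29 members had no read in control input 2, so that a difference in a single peak was not detectable at this depth.

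The rule set no direction between control and 30 min, but it used the values of both, each of which had to lie below the 3.5 h libraries, so that this contrast is a description too. There edgeR's quasi-likelihood test over all peaks (Benjamini-Hochberg adjusted p under 0.05) called 0 of the 101 members in either direction, and DESeq2 called 0. Over all 16364 peaks edgeR called 0.532% higher and 0.281% lower at 30 min. At an unadjusted p under 0.05, 5 members were higher and 1 was lower, when 11.5% and 9.92% of all peaks were. The log2 difference between 30 min and control had a median of 0.03 over members (-0.18 to 0.51), beside 0.02 over all peaks. The 30 min mean was above the control mean in 65 members (64.4%, against 57.6% of the peaks with enough reads). The largest log2 difference was at Peak_7154 on chromosome 8. It had 25.4, 21.3 and 22.1 CPM in the control libraries and 32.5, 33.2 and 32.4 at 30 min. This scale divides by reads in peaks and cannot show a change shared by all peaks, and at the low counts of most members a small difference was not detectable. The number called was 0 to 3 under the other settings tried.

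For the contrasts that chose the peaks, the same fit called 92 members higher at 3.5 h than in control cells and 92 higher than at 30 min, and DESeq2 called 83 in each. Over all peaks 13.7% and 17.9% were called higher, and nothing is read from these counts. The log2 difference had a median of 0.45 against control and 0.39 against 30 min, beside 0.00 for all peaks in both. The comparisons share the 3.5 h libraries. When all aligned reads set the scale, the median of all peaks shifted to 0.16 between 30 min and 3.5 h and to 0.07 between control and 3.5 h on the log2 scale, a shift that all peaks share.

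The choice of the 101 peaks used all 9 libraries, so that the rule could be read in libraries it had not used, but not these peaks themselves. The rule was applied to 2 of the 3 replicate numbers, and the peaks it picked were then read in the third, where a peak was counted as repeated if its 3.5 h CPM was at least 1.25 times both the control and the 30 min CPM. The sets picked in this way held 81, 58 and 90 of the 101 members. With replicate 1 held out, 47 of 129 picked peaks were repeated (36.4%), against 1.15% of all peaks with enough reads. With replicate 2 held out it was 48 of 73 (65.8%), against 3.67%. With replicate 3 held out it was 39 of 199 (19.6%), against 0.632%. The repeated share was above the background in each of the 3 replicate numbers, and 134 of 401 picks (33.4%) were repeated over all. The background holds peaks of every level, while the picked peaks are mostly weak ones, whose ratios vary more.

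The size shrank in libraries that had no part in the choice. The median ratio of the picked peaks went from 1.3 in the picking libraries to 1.2 in held-out replicate 1 and from 1.31 to 1.1 in held-out replicate 3, and was 1.32 in both for replicate 2. The background medians in the held-out libraries were 0.980, 0.994 and 0.973. A ratio above 1 was found in 119 of 129 (92.2%), 68 of 73 (93.2%) and 133 of 199 (66.8%) picked peaks, beside 39.1%, 47.7% and 41.6% of the background. Most picked peaks thus kept the direction but not the size in replicates 1 and 3. Among the 101 members, the highest 3.5 h library was replicate 2 for 43, replicate 3 for 30 and replicate 1 for 28, and the lowest was replicate 1 for 50. No single 3.5 h library was highest in most members, although replicate 2 was so in a larger share of members than of the peaks with enough reads (42.6% against 24.9%).

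**Figure D4:**
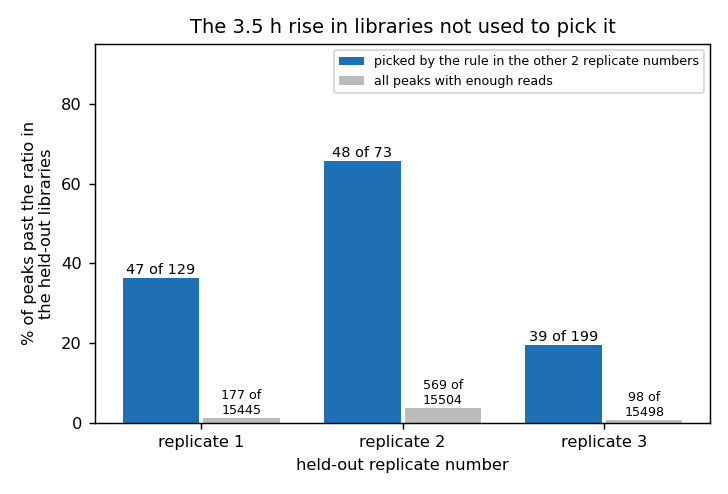
Percent of peaks (y axis) whose 3.5 h CPM was at least 1.25 times both the control and the 30 min CPM in the held-out replicate number (x axis), for peaks picked in the other 2 replicate numbers (blue) and for all peaks with enough reads (grey). The blue bars stand at 36.4%, 65.8% and 19.6%, each above its grey bar.

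The members lay on 19 of the 20 chromosomes searched, and their share of the peaks with enough reads was highest on chromosomes 12 (8 of 552, 1.45%), 6 (10 of 739, 1.35%) and 3 (13 of 1175, 1.11%). It was 12 of 1952 (0.615%) on chromosome 1, and chromosome 18 held none among 425 peaks. Their nearest peak of any kind was within 2 kb for 27 members (26.7%, against 14.9% of the peaks with enough reads) and at a median of 15089 bp, against 21224 bp. Of those 27 neighbours 24 were not members, the rest being in 1 group on chromosome 6. For the other peaks with enough reads at that distance, 2254 of 2278 neighbours were not members. The nearest peak was thus a member more often for members than for other peaks. The 24 had a median ratio of 1.03 with 16 above 1 (66.7%), beside 0.968 and 38.9% for the 2254. Within 20 kb 60 of 65 neighbours were not members, beside 7367 of 7432 for the other peaks. The median ratio of the 60 was 1.01, beside 0.977. The ratios of these neighbours went both ways, from 0.833 to 1.23 within 2 kb and from 0.458 to 1.23 within 20 kb, and the closest of them can share fragments with a member.

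A group of 3 adjacent members lay on chromosome 6. Peak_6396 (12362482 to 12363952), Peak_6397 (12364904 to 12365831) and Peak_6398 (12365955 to 12366537) are separated by 951 and 123 bases. Peak_6396 had 14.7, 16.3 and 13.7 CPM in control cells, 16.8, 16.5 and 17.3 at 30 min, and 29.0, 23.9 and 21.5 at 3.5 h. Peak_6397 had 6.47, 8.03 and 7.53, then 8.74, 7.95 and 9.07, then 15.7, 13.7 and 12.1. Peak_6398 had 2.91, 3.12 and 3.52, then 2.74, 2.28 and 3.50, then 5.74, 4.85 and 3.79. In all 3 peaks replicate 1 was the highest and replicate 3 the lowest of the 3.5 h libraries, and the ratios were 1.47, 1.61 and 1.51. Peaks this close can share fragments and are not independent cases.

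Counting each member with the next one along its chromosome, 4 pairs lay within 50 kb of each other, 2 of them in that group. On chromosome 5, Peak_6184 (140930081 to 140931053) lay 5503 bp from Peak_6183, with 0 peaks between them, and had a ratio of 1.39. On chromosome 3, Peak_11370 (9520466 to 9521888) lay 24623 bp from Peak_5228. It had 18.7, 18.6 and 18.6 CPM in control cells, 19.2, 18.2 and 18.8 at 30 min, and 22.5, 25.6 and 24.7 at 3.5 h, a ratio of 1.29, and the 2 peaks between them had a median ratio of 1.07. Of the 101 members, 25 lay within 500 kb of another. How this count compares with that for an equal number of other peaks was not tested.

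The members also shared a feature of the deposited list. The peak numbers run through the chromosomes 3 times, from 1 to 3590, from 3591 to 8932 and from 8933 to 16364, and no source says what the 3 passes are. The first pass held 7 members (6.93%), the second 75 (74.3%) and the third 19 (18.8%), whereas the peaks with enough reads fell 22.0%, 32.7% and 45.3%. Members were 0.205%, 1.48% and 0.271% of the peaks of each pass. The median log2 difference between 3.5 h and control over all peaks with enough reads was 0.01, 0.05 and -0.00 in the 3 passes. Peaks outside the second pass were repeated in the held-out libraries 9 of 41, 5 of 10 and 7 of 53 times. Among all peaks with enough reads outside that pass the shares were 0.366%, 2.40% and 0.211%. Picked peaks of the second pass were repeated 38 of 88, 43 of 63 and 32 of 146 times, and a background for that pass alone is not given. How the list was assembled, and its part in the choice of members, was not tested.

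The mirrored rules show how the set compares with other patterns, as a description. With the same thresholds 868 peaks were lower at 3.5 h than in both other conditions, 345 were higher at 30 min than in both others and 2 were lower at 30 min. In 67 peaks control cells were below both later conditions and in 1 above both. On this scale the 101 members were fewer than the peaks with a lower value at 3.5 h. The members numbered 380 per all aligned reads and 217 with loess offsets. The mirrored sets were not counted under those scalings, so that the order of the 2 numbers there is not known. Peaks of the second pass made up 74.3% of the members, while the third pass held 58.9% of the peaks lower at 3.5 h and 71.9% of those higher at 30 min. Of the peaks with control below both later conditions, 67.2% came from the second pass.

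**Figure D5:**
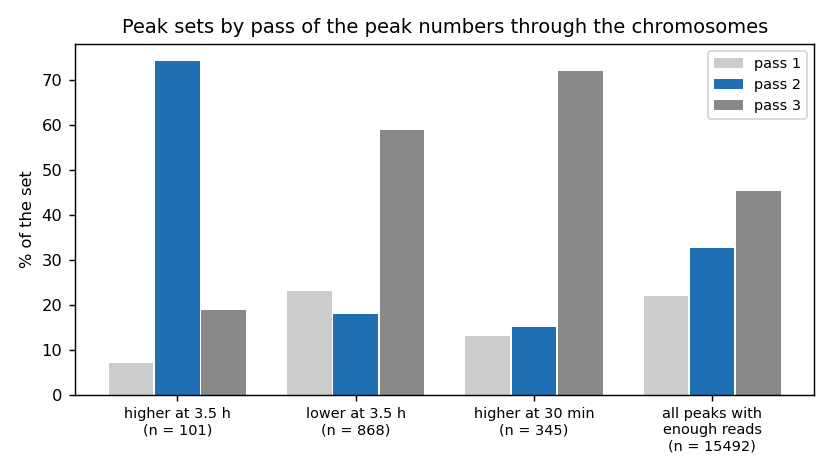
Percent of each peak set (y axis) in pass 1, 2 and 3 of the peak numbers, for the 101 members, the 868 peaks lower at 3.5 h, the 345 peaks higher at 30 min and the 15492 peaks with enough reads (x axis). Pass 2 holds 74.3% of the members, and pass 3 holds most of both other sets.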

How the data were processed

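H3K4me3 ChIP and genomic input libraries were sequenced as single reads. The authors trimmed reads with Trim Galore, aligned them to Rnor_6.0 with BWA, removed multi-mapped reads with SAMtools and duplicates with Picard, used MACS2 and the Irreproducible Discovery Rate to find peaks, and merged these between treatments. Each deposited value is the count of reads that HTSeq-count placed in a merged peak, not normalized. The 18 single-library files and the combined table differed in 0 values, and 0 columns were unused. The lines for reads outside peaks (11.5% to 24.9% of aligned ChIP reads) entered neither the library sizes nor the tests.

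For the tests edgeR 4.0.16 was run on the counts under R 4.3.3 (quasi-likelihood fit of all 9 ChIP libraries, TMM, filterByExpr, Benjamini-Hochberg adjusted p under 0.05), with DESeq2 1.42.0 as an alternative. On simulated counts for 16364 peaks, 200 of them changed 1.3-fold, 164 were recovered with 10 false calls. The changed peaks were drawn from all peaks, and the same biological variation was set for every peak. Members had fewer reads (median mean count 199, against 808 over the peaks with enough reads), so that these figures may not hold for them. Input shares were compared by exact permutation. Python 3.11.15 with numpy 2.4.6, pandas 2.3.3, scipy 1.17.1 and matplotlib 3.10.9 was used for the rest.

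The members, the rule and the comparisons were chosen with earlier results of these data known. Peaks named are the 10 largest ratios, the 6 highest mean counts, the 3 widest, the 3 narrowest, the 3 just inside and the 3 just outside the ratio, and members within 50 kb of another. Peak_6354, Peak_12946, Peak_12955, Peak_8623, Peak_7154 and Peak_7676 were named after their values were seen. Gene lists and marker genes, planned for the case that Rnor_6.0 annotation was given, were not used here. Replicate numbers are shared between conditions in the labels. The correlation of deviations between libraries of the same number was -0.206 to 0.389, and 4 of 9 exceeded 0.1. These values cannot decide whether the numbers pair the libraries, and the main fit used no replicate block. Alternatives were other scalings, filters, ratios and fits, and each library left out in turn. The runs outside the second pass were added after the data were seen.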

Additional observations from a re-analysis of the deposited data

Results flagged for a closer look

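Peak_7676 on chromosome X (11637484 to 11639365), which the rule leaves out because of its chromosome, met every other criterion with a ratio of 1.259. It had 18.5, 20.8 and 18.4 CPM in the control libraries, 20, 19.0 and 18.7 at 30 min, and 23.7, 24.9 and 24.0 at 3.5 h. All 3.5 h libraries lay above the other 6. Since it was selected on these values, no test is given. It was the 1 peak outside chromosomes 1 to 20 that did so. Groups of 3 libraries are too small for a test of outlying samples, and none was made.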

How the results depend on the processing

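The number of members was 91 with TMM-scaled CPM, 81 with a mean count of at least 100 and 107 without a minimum, beside 101. It was 380 per all aligned reads (99 of the 101 among them), 217 with loess offsets (86 among them), 887 at a ratio of 1.1, 11 at a ratio of 1.5 and, by construction, 26 outside the second pass of peak numbers. With each library left out it was 82 to 153, the highest without 30 min replicate 3 and the next, 149, without 3.5 h replicate 1. The members called higher numbered 83 to 98 against control and 83 to 101 against 30 min under the other settings, and 71 to 92 and 78 to 92 with each library left out. For 30 min against control, where 0 were called, 1 was called with library size without TMM, 1 with all aligned reads, 1 with loess offsets and 3 with only the compared conditions in the fit, and 0 to 2 with each library left out (2 without 3.5 h replicate 1 or replicate 3). The cause of these shifts was not tested. The share repeated in held-out libraries was 27.1% to 36.6% under other scalings and a higher minimum and 20.2% outside the second pass (background 0.992%). It was 79.8% when any ratio above 1 counted, with a background of 42.8%. The input difference between 3.5 h and control was -0.0352 to 0.0290 percentage points with each library left out, changing sign in 4 of 6 cases, and that between 3.5 h and 30 min -0.0267 to 0.00185, changing sign without 3.5 h replicate 1.

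With the replicate number as a block, 90 members were called against control, 91 against 30 min and 2 between 30 min and control. In 4 of the 9 same-number comparisons the correlation was highest with the library of the same number. This does not decide whether the libraries are paired, so that the block rests on a number alone. Input depth limits statements on single peaks.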
